A study of Mus musculus with 19 samples.

Results

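mt-Te and mt-Tg are the mitochondrial tRNA genes for glutamate and glycine, and their fragments were followed in mouse sperm small RNA. The 2 genes were chosen by their read numbers in PANDORA-seq, the highest among the 22 mitochondrial tRNAs after mt-Th, so their high level by that method is a description and not a result. Their mean levels by PANDORA-seq were 82.8 reads per 1000000 total reads (RPM) for mt-Te and 25.7 RPM for mt-Tg, against 2646 RPM for mt-Th above them and 19.5 RPM for mt-Tt, the next gene below. A read was counted when it matched the tRNA with its CCA tail in sense orientation, allowing 1 mismatch. Of 711662713 reads in the 19 libraries, 50762 belonged to mt-Te and 23556 to mt-Tg, in 2093 and 2360 distinct sequences.

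Sperm came from wild-type C57BL/6J mice that were 8 weeks old when a 4-week oral gavage began. DCHP (dicyclohexyl phthalate, a plasticizer) was given at 10 mg/kg body weight per day, and the control mice received the corn oil vehicle alone. RNA of 15 to 50 nt was sequenced either directly (traditional RNA-seq, 5 control and 5 DCHP libraries) or by PANDORA-seq (4 control and 5 DCHP libraries), in which T4 polynucleotide kinase repairs RNA ends and AlkB removes certain methyl groups from bases before the adapters are joined. Control status was read from the library titles, since another label gives DCHP gavage for all 19 libraries, and the labels do not say which libraries share an animal, so p-values measure the spread between libraries. The libraries held 25432054 to 56506344 reads by PANDORA-seq and 21588335 to 52099239 by the traditional method. The miRNA genes of sperm and testis (Mir34b, Mir34c, Mir449a) summed to 0.856 to 5.78 RPM by PANDORA-seq and to 78.7 to 403.0 RPM by the traditional method, where the liver miRNA gene Mir122 reached 634 to 56035 RPM and the smooth muscle genes Mir143 and Mir145a summed to 1165 to 5789 RPM. Epithelial, red blood cell and leukocyte miRNA genes summed there to 491 to 3927, 1.79 to 72.4 and 2.65 to 64.3 RPM. No marker gene was at 0 in all libraries of either method. Fewer cells of a type and less RNA per cell cannot be told apart in such samples.

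Mitochondrial tRNAs lie between the other genes of the mitochondrial DNA and are cut out of long transcripts at both ends, after which an enzyme adds the tail CCA, to which the amino acid is joined. Fragments of tRNAs, called tsRNAs, are a large part of sperm small RNA. Some carry phosphates at their ends or methylated bases that hinder adapter joining or reverse transcription, which is what PANDORA-seq was designed to overcome. mt-Te lies on the minus strand of chrM:14071-14139 (mm10, ENSMUSG00000064369), is followed without a gap by mt-Nd6, and has mt-Cytb on the other strand behind its 5′ end. mt-Tg lies on the plus strand of chrM:9391-9458 (ENSMUSG00000064359), directly between mt-Co3 and mt-Nd3. Both are whole exons of noncoding genes. With the tail they are 72 and 71 nt long, and the anticodon takes bases 31 to 33 in both. The sequences, from GENCODE M21 with the tail added, are printed 5′ to 3′ as DNA letters, with the anticodon and the tail in capitals, because every position below is counted from their first base.
mt-Te: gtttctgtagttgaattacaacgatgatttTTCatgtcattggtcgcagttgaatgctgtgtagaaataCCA
mt-Tg: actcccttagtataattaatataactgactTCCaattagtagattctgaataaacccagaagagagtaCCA

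The fragments that led each gene are shown next, with anticodon and tail bases in capitals where the fragment holds them. By PANDORA-seq mt-Te was led by 2 fragments that start just after the anticodon and share their last base.
mt-Te, bases 35 to 58: tgtcattggtcgcagttgaatgct
mt-Te, bases 34 to 58: atgtcattggtcgcagttgaatgct
The fragments with the highest means by the traditional method were 2 that start at base 34, directly after the anticodon, and run into the tail, and another that holds the anticodon. Their order rests in part on DCHP replicate 2: without it the means were 4.65, 1.45 and 2.25 RPM in place of 14.2, 3.94 and 2.19 RPM, and in the control libraries bases 35 to 58 came first with 2.27 RPM before bases 34 to 70 with 2.14 RPM.
mt-Te, bases 34 to 70: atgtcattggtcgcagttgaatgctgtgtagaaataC
mt-Te, bases 34 to 71: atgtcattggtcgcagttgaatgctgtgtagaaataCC
mt-Te, bases 26 to 58: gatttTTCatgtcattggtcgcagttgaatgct
For mt-Tg the leading PANDORA-seq fragments start before the anticodon and hold it, and the fragment with the highest mean by the traditional method, which rests on 1 library as given below, starts at base 34 and ends on the first base of the tail.
mt-Tg, bases 23 to 56: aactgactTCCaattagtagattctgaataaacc
mt-Tg, bases 21 to 56: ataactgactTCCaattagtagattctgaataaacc
mt-Tg, bases 34 to 69: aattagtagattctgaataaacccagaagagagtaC

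**Figure D1:**
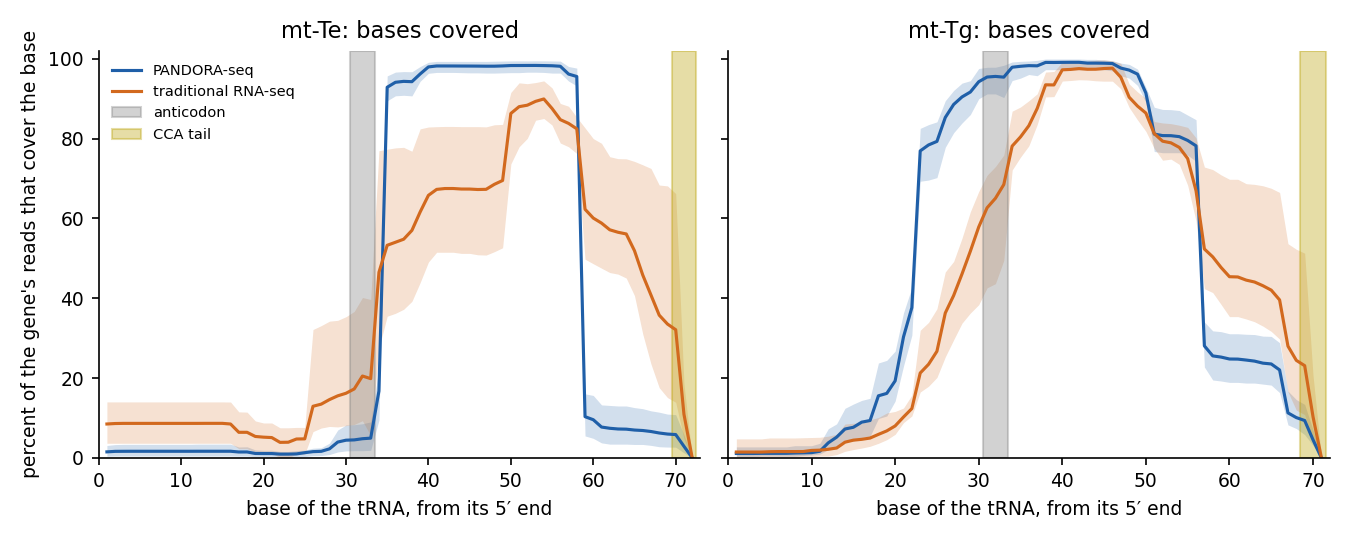
Percent of the reads of mt-Te (left) and mt-Tg (right) that cover each base, counted from the 5′ end of the tRNA. Lines are means and bands the lowest to highest library, for 9 PANDORA-seq libraries (blue) and 10 traditional libraries (orange), with the anticodon in grey and the CCA tail in yellow. PANDORA-seq reads of mt-Te fill a block that ends at base 58, those of mt-Tg a block that ends most commonly at base 56, and the traditional reads are spread more widely.

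By PANDORA-seq, mt-Te was close to a single fragment of 24 nt. The fragment of bases 35 to 58 lies at chrM:14082-14105 and took 59.2% to 73.8% of the gene's reads in the 9 libraries, with a mean level of 56.8 RPM. Its level was 32.9, 34.3, 123.8 and 28.2 RPM in control replicates 1 to 4, and 34.8, 34.02, 64.2, 79.9 and 78.9 RPM in DCHP replicates 1 to 5. Control replicate 3 was above every other library, and the other 3 control libraries were close to the 2 lowest DCHP libraries. In the traditional libraries the same fragment had a mean of 1.63 RPM and ranged from 0.232 to 3.73 RPM. The fragment that is 1 base longer at its 5′ end, of bases 34 to 58, had a mean of 5.47 RPM by PANDORA-seq and 0.943 RPM by the traditional method, and the next, of bases 40 to 58, had 1.37 and 0.289 RPM. Base 35 was the first base of 76.1% ± 5.90 of the mt-Te reads by PANDORA-seq and base 34 of 12.2% ± 3.25 (SD, n = 9), and base 39 came next with 1.97% ± 1.25. The last base was base 58 in 85.2% ± 4.94, base 70 in 2.94% ± 1.66 and base 71 in 2.88% ± 1.33. Start, end and length of the leading class were the same in 9 of 9 PANDORA-seq libraries. Base 58 leaves 11 encoded bases of the tRNA uncovered.

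In traditional RNA-seq, mt-Te was a mixture that differed from library to library. The most common first bases were base 34 with 26.7% ± 21.2, base 50 with 17.2% ± 11.3 and base 26 with 8.92% ± 7.69 of the reads (SD, n = 10), and base 34 led in 6 libraries and base 50 in 4. The most common last bases were base 70, the first base of the tail, with 21.2% ± 14.1, base 58 with 20.2% ± 10.2, and base 71 with 10.9% ± 4.61, and base 58 led in 6 libraries and base 70 in 4. Without DCHP replicate 2 base 58 came first, with 22.2% against 17.8% for base 70, as it also did without DCHP replicate 3 or without control replicate 2. Thus the end at base 58 was found by both methods, and the class of lengths with the highest mean, 37 nt, took 15.4% ± 14.7. That length led in 4 libraries only. Its share there was 48.5%, 32.4% and 20.6% in DCHP replicates 2, 3 and 5 and 16.3% in control replicate 3. Short reads of 15 to 19 nt took 31.8% ± 15.2 of the traditional reads and 2.87% ± 1.01 of the PANDORA-seq reads.

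**Figure D2:**
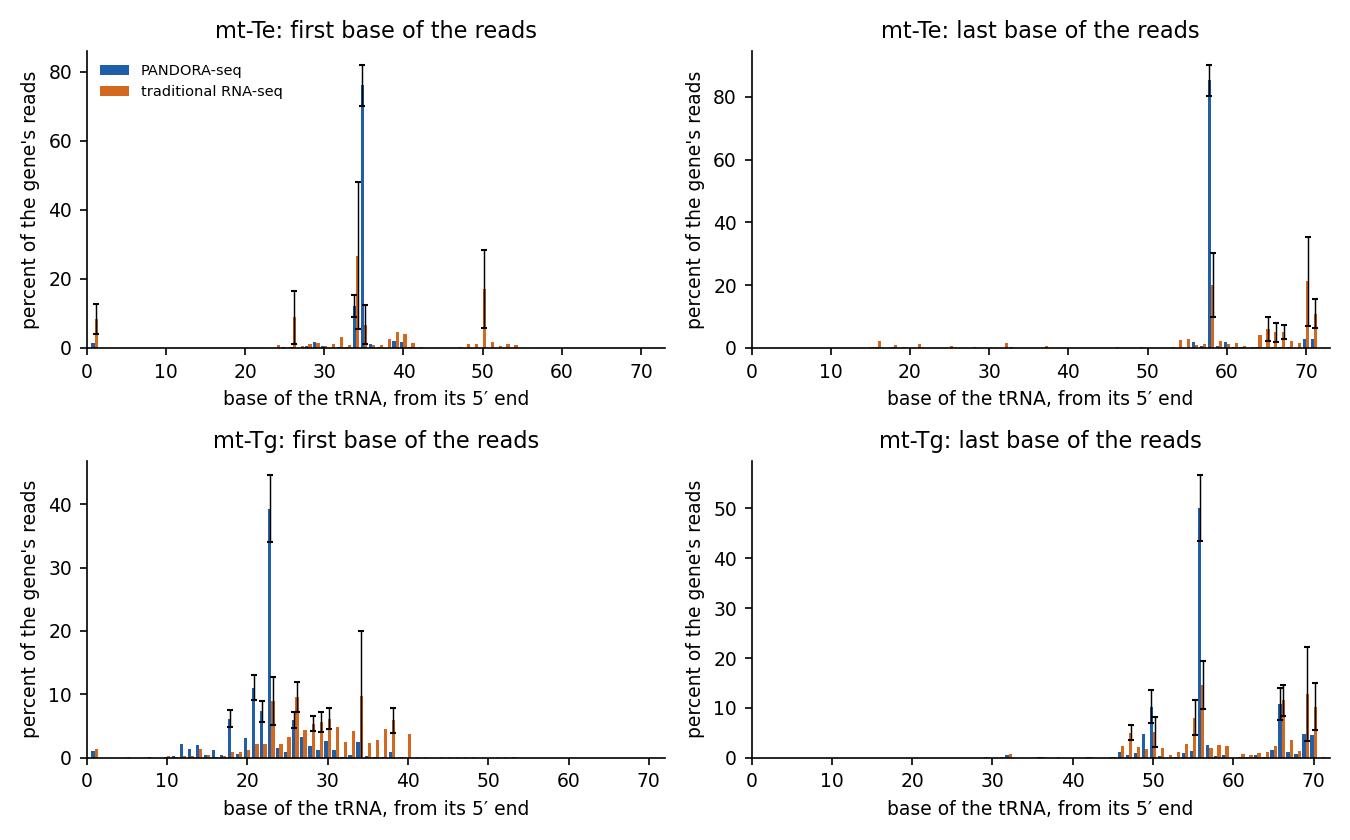
First base (left) and last base (right) of the reads of mt-Te (top) and mt-Tg (bottom), as the mean percent of the gene's reads over 9 PANDORA-seq (blue) and 10 traditional (orange) libraries, by base from the 5′ end. Error bars are the SD between libraries, drawn where the mean is above 5%. The PANDORA-seq peaks are at first base 35 and last base 58 for mt-Te, and at first base 23 and last base 56 for mt-Tg.

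mt-Tg fragments differed from those of mt-Te in that most held the anticodon. By PANDORA-seq 94.8% ± 2.58 of the mt-Tg reads covered the whole anticodon (SD, n = 9), against 4.39% ± 2.49 of the mt-Te reads, and by the traditional method the shares were 61.7% ± 9.63 and 15.8% ± 10.04 (SD, n = 10). The leading fragment by PANDORA-seq, of bases 23 to 56 and 34 nt at chrM:9413-9446, had 2.60, 1.63, 14.9 and 8.19 RPM in the 4 control libraries and 4.12, 2.61, 6.04, 10.1 and 6.37 RPM in the 5 DCHP libraries. Both groups thus spanned a severalfold range and overlapped. It took 12.9% to 35.2% of the gene's reads by PANDORA-seq, and its mean by the traditional method was 0.603 RPM. Next by PANDORA-seq came bases 21 to 56 with 2.21 RPM and bases 23 to 50 with 1.34 RPM, and by the traditional method bases 34 to 69 led with 2.37 RPM before bases 23 to 50 with 0.873 RPM and bases 34 to 66 with 0.645 RPM. That lead rests on DCHP replicate 2, without which bases 34 to 69 had 0.747 RPM, bases 23 to 50 had 0.836 RPM and bases 34 to 66 had 0.413 RPM, and in control bases 23 to 50 had 0.953 RPM against 0.396 RPM for bases 34 to 69. Base 23 began 39.3% ± 5.32, base 21 began 11.04% ± 1.99 and base 22 began 7.34% ± 1.61 of the PANDORA-seq reads. Base 56 ended 50.1% ± 6.62 of them, base 66 ended 10.8% ± 3.18 and base 50 ended 10.3% ± 3.24. First base 23, last base 56 and length 34 nt led in 9 of 9 PANDORA-seq libraries. By the traditional method base 34 began 9.67% ± 10.3, base 26 began 9.60% ± 2.31 and base 23 began 8.95% ± 3.76 of the reads. Base 26 led in 6 libraries and bases 23 and 34 in 2 each, and without DCHP replicate 2 base 34 began 6.60%, below base 26 with 10.1% and base 23 with 9.28%. Base 56 had the highest mean as last base there, with 14.6% ± 4.79, ahead of base 69, the first base of the tail, with 12.8% ± 9.34, and base 66 with 11.6% ± 3.10. It led in 4 libraries, bases 66 and 69 in 2 each and bases 55 and 70 in 1 each. Of the reads, 3.17% ± 1.35 by PANDORA-seq were 45 nt, the greatest length in the files, so longer mt-Tg fragments were not measured.

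**Figure D3:**
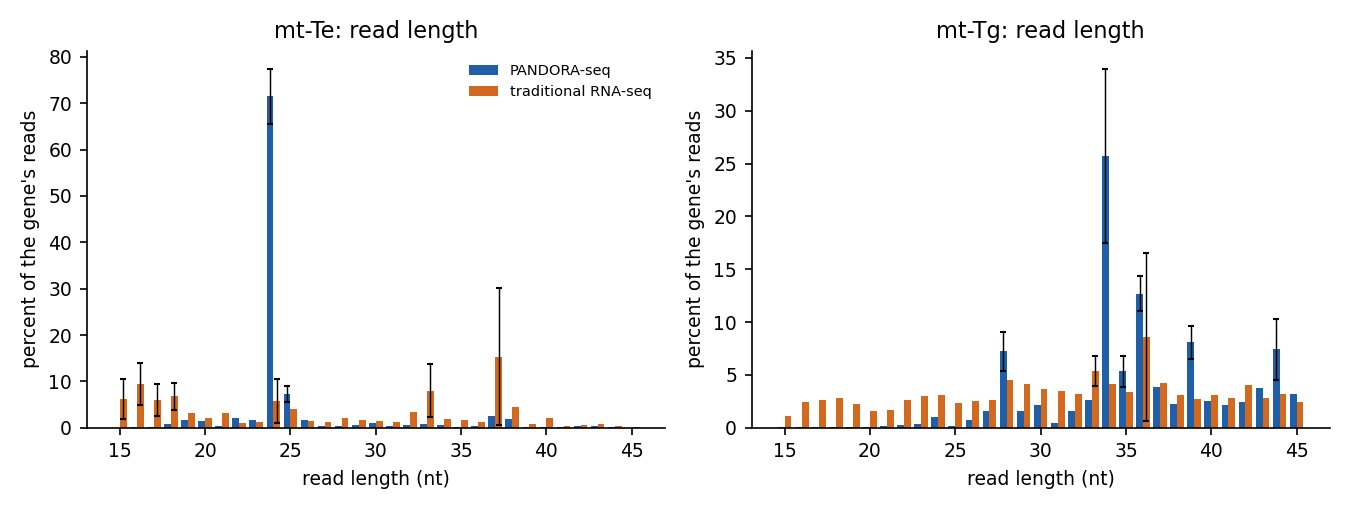
Read lengths of mt-Te (left) and mt-Tg (right) as the mean percent of the gene's reads over 9 PANDORA-seq (blue) and 10 traditional (orange) libraries, with SD where the mean is above 5%. The bar at 24 nt holds 71.5% of the mt-Te reads by PANDORA-seq, and the bar at 34 nt 25.7% of the mt-Tg reads.

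The share of long reads differed between the methods in opposite directions for the 2 genes. A total of 40 comparisons was made, of 5 measures per gene (the share of reads that start at base 1, that reach the last base of CCA, that are 30 nt or longer, that hold 1 mismatch, and that are mismatched at base 9 among reads covering it), between the methods within each exposure and between the exposures within each method. Each was tested by two-sided exact permutation, p-values were adjusted over all 40 by the Benjamini-Hochberg method, and 8 passed an adjusted p of 0.05, all at the smallest exact p the design allows (0.00794, adjusted 0.0397). A fragment that is plentiful by PANDORA-seq helped its gene to be chosen, so the comparisons between methods are not independent of the choice. Reads of 30 nt or longer made up 11.8% ± 5.27 of the mt-Te reads by PANDORA-seq (SD, n = 4) and 35.5% ± 4.54 by the traditional method (n = 5) in control, and 8.17% ± 3.57 and 52.8% ± 20.8 in DCHP (n = 5 each). For mt-Tg they made up 87.3% ± 3.69 by PANDORA-seq and 59.7% ± 4.24 by the traditional method in control, and 85.7% ± 0.249 and 61.3% ± 11.998 in DCHP. All 4 of these comparisons passed and the libraries of the methods did not overlap. When each distinct sequence was counted once, none of the 8 calls was left: the long share of mt-Te was 39.9% by PANDORA-seq and 41.5% by the traditional method in control (exact permutation p 0.611, adjusted 0.815), and 37.7% and 51.3% in DCHP (p 0.0238, adjusted 0.190). For mt-Tg these shares were 82.3% and 63.3% in control and 84.2% and 62.9% in DCHP (exact permutation p 0.00794 and adjusted p 0.106 each). With mt-Te reads that start at base 1, the traditional share of 9.49% ± 4.79 in DCHP was above the PANDORA-seq share of 1.69% ± 0.990 and passed, whereas in control the shares of 7.47% ± 4.06 and 1.25% ± 0.913 gave an exact permutation p of 0.0159 and an adjusted p of 0.0577. In the DCHP libraries the replicate numbers pair the methods, and there a sign-flip test over the 5 pairs cannot go below 0.0625, so no call between the methods passed with that block. In control no pairing was detected, but shared animals are not excluded, and the permutation tests treat the libraries as independent. Without any single PANDORA-seq or traditional control library no call was left either. Then 2 or 6 comparisons were still at an exact permutation p of 0.00794, which adjusts to 0.0794 or 0.0529, so calls were lost also where none of their own libraries had been left out. The shares stayed apart: with 1 library left out, long mt-Te reads in control were 33.8% to 36.6% by the traditional method and 10.1% to 14.3% by PANDORA-seq, and long mt-Tg reads 58.5% to 61.2% and 85.7% to 88.6%.

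Among reads, mismatches were rarer by PANDORA-seq in DCHP, and in control the shares lay in the same direction without passing. The reads with 1 mismatch were 7.04% ± 0.570 of the mt-Te reads by PANDORA-seq and 19.04% ± 6.75 by the traditional method in DCHP, and 8.04% ± 0.992 and 15.8% ± 3.82 of the mt-Tg reads, and both differences passed. When each distinct sequence was counted once, the DCHP shares were 49.9% and 59.7% for mt-Te (exact permutation p 0.349) and 35.5% and 42.1% for mt-Tg (exact permutation p 0.270), and neither difference passed (adjusted p 0.665 each). In control the shares were 7.67% ± 1.31 and 18.2% ± 4.15 for mt-Te, and 8.11% ± 0.730 and 14.8% ± 3.14 for mt-Tg, each with an adjusted p of 0.0577. There too the libraries of the methods did not overlap. The mt-Te shares were 6.09% to 9.08% by PANDORA-seq and 12.1% to 22.3% by the traditional method, and those of mt-Tg 7.60% to 9.17% and 9.68% to 18.4%. Since longer reads have more bases to differ at, mismatches were also counted per 100 bases read. That rate was 0.249 to 0.357 for mt-Te and 0.195 to 0.263 for mt-Tg in the PANDORA-seq libraries, and 0.494 to 0.850 and 0.301 to 0.635 in the traditional libraries. The reads of mt-Th showed the same order, with 0.267 to 0.447 by PANDORA-seq and 0.491 to 0.563 by the traditional method.

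Base 9, an A in both tRNAs, was the position most often mismatched in the traditional libraries among positions covered by at least 100 reads. This base carries a methyl group in many mitochondrial tRNAs, one of the kinds that AlkB can remove, and whether it does so here was not tested. In the traditional libraries 120 of the 2459 mt-Te reads that cover it differed from A, or 4.88% (Wilson 95% interval 4.10% to 5.80%, counting error only), of which 67 were A9T, 44 were A9G and 9 were A9C (the reference base first, then the position and the base read). For mt-Tg 22 of 224 reads differed, or 9.82% (6.58% to 14.4%), with 14 A9G, 7 A9T and 1 A9C. Pooled by exposure, the mt-Te shares were 9.48% in control (65 of 686) and 3.10% in DCHP (55 of 1773). Those of mt-Tg were 7.46% (5 of 67) and 10.8% (17 of 157), and the comparison of exposures passed for neither gene. As means over the 10 libraries the shares were 8.43% for mt-Te and 11.7% for mt-Tg. The mt-Tg mean includes 50% in DCHP replicate 4, from 2 of 4 reads, and only 4 to 87 mt-Tg reads per traditional library covered the base. The libraries were far apart, from 0 of 51 to 13 of 52 mt-Te reads among the controls, and DCHP replicate 5 gave 11 of the 22 mismatched mt-Tg reads, without which the pooled share was 6.11% (11 of 180). By PANDORA-seq none of 401 mt-Te reads and none of 95 mt-Tg reads differed at base 9, which allows shares of up to 0.748% and 3.16% if 3 reads of the total is taken as the limit of a count of 0 (Wilson upper bounds 0.949% and 3.89%). The comparison of the methods passed for mt-Te in DCHP, where the traditional libraries averaged 5.30% ± 4.47, and for no other gene and exposure. It did not pass when sequences seen once in a library were left out (adjusted p 0.173). Few PANDORA-seq reads reach this base, 12 to 71 per library for mt-Te and 4 to 16 for mt-Tg. The other positions named by rank had lower means over libraries in the traditional method: base 1 and base 14 of mt-Te with means of 2.03% and 1.95% and base 2 of mt-Tg with 1.88%. Over the PANDORA-seq libraries they were base 23 (3.18%, from 8 of 228 reads), base 2 (1.64%) and base 20 (1.38%) of mt-Te and base 65 (0.884%) and base 61 (0.711%) of mt-Tg. Base 71 of mt-Tg was read too seldom to rank, in 1 PANDORA-seq and 10 traditional reads.

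Reads that ran into the tail almost never held its last base. By the traditional method 6835 mt-Te reads ended at the first tail base, 2705 at the second and 2 at the final A, against 330 that ended at the last encoded base. By PANDORA-seq these counts were 663, 711, 3 and 34. For mt-Tg they were 1990, 1538, 10 and 201 by the traditional method and 451, 402, 1 and 64 by PANDORA-seq. In the mitochondrial DNA the base after either gene is an A, the first base of mt-Nd6 or mt-Nd3, so the C that follows the gene in these reads is not encoded there. Of the counted reads with tail bases, those that ended with the whole CCA were 0.0210% and 0.218% for mt-Te and 0.283% and 0.117% for mt-Tg (traditional and PANDORA-seq), and 3.77% and 0.632% for mt-Th. Reads with 1 to 3 further bases after CCA are not among these. They numbered 13 and 2 for mt-Te and 13 and 0 for mt-Tg (traditional and PANDORA-seq). The pooled traditional counts of mt-Te lean on DCHP replicates 2 and 3, where 51.4% of 6459 and 36.7% of 4226 reads ended at the first tail base. Both traditional mt-Te reads that ended at the final A came from control replicate 4. The other 19 mitochondrial tRNAs varied, with 1.71% and 3.23% when pooled, and some had no read that ended with the whole CCA, such as mt-Tl1 with 0 of 287 traditional reads (up to 1.05% by the 3-read limit) and mt-Tm with 0 of 661 (up to 0.454%). In the files as a whole, 11.1% to 21.8% of the reads of each library ended in A and 0.140% to 0.307% in CCA. None of the 8 comparisons of the share that reached the last base passed.

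Reads that join a tRNA to its neighbour were few at the borders that were counted. Across the 3′ end there were 2 and 8 reads for mt-Te and 0 and 2 for mt-Tg, and across the 5′ end of mt-Tg 0 and 12 (PANDORA-seq and traditional). The mt-Tg reads that started at base 1, at the same 5′ end, numbered only 82 and 210. Reads across the 5′ end of mt-Te were not counted here. Antisense reads numbered 13 and 26 for mt-Te and 0 for mt-Tg in both methods. Exact matches in other annotated transcripts were 0.988% of the mt-Te reads and 0.517% of the mt-Tg reads by the traditional method and 0.0138% and 0.0108% by PANDORA-seq, and all of these were shorter than 20 nt. Copies of mitochondrial DNA in the nuclear genome were not searched.

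**Figure D4:**
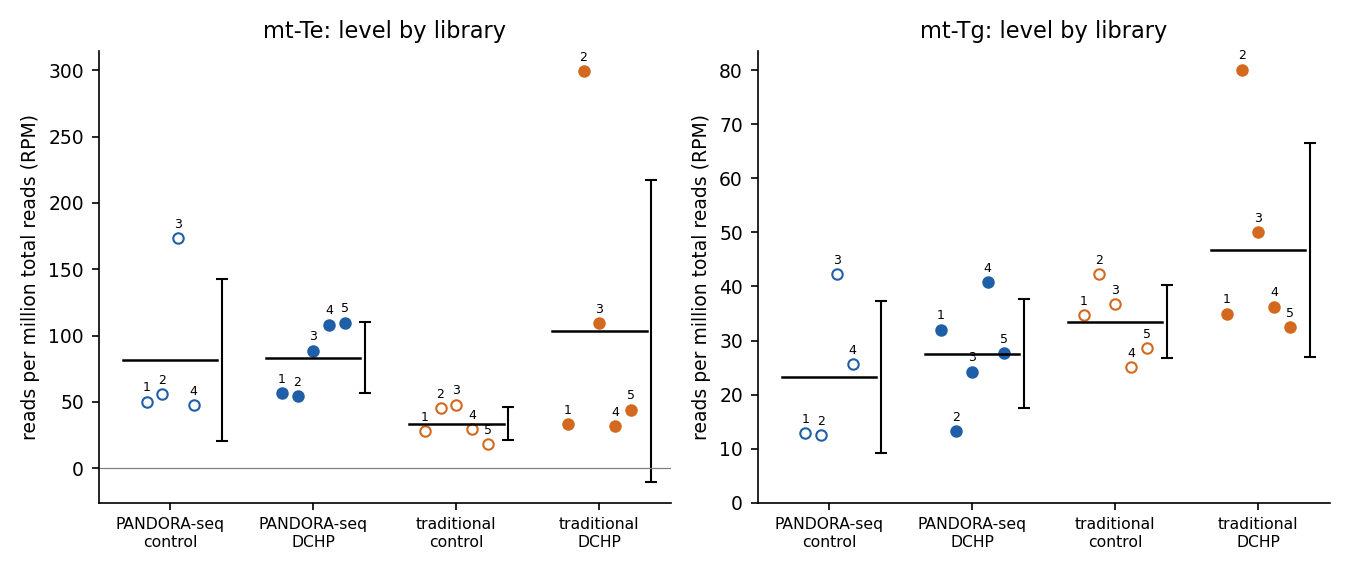
Level of mt-Te (left) and mt-Tg (right) in each library in RPM, by method and exposure. Open circles are control and filled circles DCHP libraries with their replicate numbers, black lines are means and error bars the SD. For mt-Te, PANDORA-seq control replicate 3 stands above the other PANDORA-seq libraries, and traditional DCHP replicates 2 and 3 above the other traditional libraries. PANDORA-seq DCHP replicates 4 and 5 (108.3 and 109.7 RPM) are level with traditional DCHP replicate 3 (109.3 RPM).

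Whether DCHP changed the level of either tRNA was asked within each method. By PANDORA-seq mt-Te was at 50.2, 55.9, 173.5 and 47.6 RPM in control replicates 1 to 4 and at 56.7, 54.2, 88.6, 108.3 and 109.7 RPM in DCHP replicates 1 to 5. The means of 81.8 ± 61.2 (SD, n = 4) and 83.5 ± 26.9 RPM (n = 5) differed by 1.02-fold, with an exact permutation p of 0.929 and an adjusted p over the 22 mitochondrial tRNAs of 0.998. Without control replicate 3 the fold was 1.63, and the adjusted p over all libraries left out in turn was at least 0.540. mt-Tg was at 12.9, 12.4, 42.2 and 25.6 RPM in control and at 32.01, 13.2, 24.2, 40.8 and 27.7 RPM in DCHP. The groups overlapped, and the means of 23.3 ± 14.03 and 27.6 ± 10.1 RPM gave a fold of 1.19 (exact permutation p 0.563, adjusted 0.967). None of the 22 genes passed the adjusted p, and 1 of 22 (4.55%) had an unadjusted p under 0.05, which was neither mt-Te nor mt-Tg. Some marker groups were highest in 2 of the DCHP libraries. Epithelial miRNA genes summed to 2.32 to 7.19 RPM in control, to 3.49 to 5.11 RPM in DCHP replicates 1 to 3 and to 20.5 and 38.04 RPM in replicates 4 and 5, the DCHP libraries with the most mt-Te, and the sperm and testis genes summed to 0.856 to 0.991 RPM in control, to 0.993 to 1.16 RPM in DCHP replicates 1 to 3 and to 2.41 and 5.78 RPM in replicates 4 and 5. The smooth muscle genes summed to 2.28 to 12.5 RPM in control, to 4.35 to 9.59 RPM in DCHP replicates 1 to 3 and to 25.3 and 94.0 RPM in replicates 4 and 5, whereas liver Mir122 was highest in control replicate 2 (104.0 RPM) and DCHP replicate 2 (87.9 RPM). Red blood cell and leukocyte genes stayed at or below 0.227 RPM. Their part in the levels was not tested. The median fold was 1.19, that of mt-Tg itself, over the 21 genes with a read in control (mt-Td had none).

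In traditional RNA-seq mt-Te was at 27.9, 45.2, 48.0, 29.6 and 18.1 RPM in control replicates 1 to 5 and at 33.1, 299.2, 109.3, 31.7 and 44.3 RPM in DCHP replicates 1 to 5. DCHP replicates 2 and 3 stood above all control libraries and the other 3 lay within the control range. The means of 33.8 ± 12.6 and 103.5 ± 114.0 RPM (SD, n = 5 each) gave a fold of 3.06 (exact permutation p 0.159, adjusted 0.388). Without DCHP replicate 2 the fold was 1.62. mt-Tg was at 34.7, 42.2, 36.7, 25.1 and 28.6 RPM in control and at 34.96, 80.04, 50.0, 36.2 and 32.5 RPM in DCHP, and the same 2 libraries were highest. The fold was 1.40 (exact permutation p 0.183, adjusted 0.402), beside a median of 1.38 over the 22 genes. No gene passed the adjusted p and 4 of 22 (18.2%) had an unadjusted p under 0.05, again neither mt-Te nor mt-Tg. The effect of DCHP by PANDORA-seq minus that by the traditional method was -1.59 on the log2 scale for mt-Te (p 0.255) and -0.24 for mt-Tg (p 0.692), from an exact permutation of exposure within each method over 31752 assignments.

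Pieces that start or end at the anticodon, save the 5′ piece of mt-Tg in replicate 3, were among the reads that were higher in DCHP replicates 2 and 3. The mt-Te fragment of bases 34 to 70 had 100.2 RPM in DCHP replicate 2, 22.8 in replicate 3 and 6.31 in replicate 5, and 1.05 and 0.995 RPM in replicates 1 and 4. In control it had 1.53, 1.57, 5.20, 1.88 and 0.496 RPM, and in the 9 PANDORA-seq libraries 0.717 to 1.83 RPM. All mt-Te reads from base 34 into the tail summed to 178.2 RPM in replicate 2, or 59.5% of the gene's reads, and to 44.7 RPM or 40.9% in replicate 3, against 0.827 to 10.8 RPM in the other 8 traditional libraries. The remaining mt-Te reads were also highest in these libraries, at 121.0 and 64.6 RPM against 17.3 to 42.5 RPM in the other 8. The same piece of mt-Tg, from base 34 into the tail, had 23.5 and 5.56 RPM in these 2 libraries and 0.124 to 1.21 RPM in the other 8. The complementary 5′ piece of mt-Te, from base 1 to a base of the anticodon, had 13.5 and 5.46 RPM in these 2 libraries and 0 to 0.766 RPM in the others. The 5′ piece of mt-Tg had 2.41 RPM in DCHP replicate 2 but only 0.336 RPM in replicate 3, below the 0.680 RPM of replicate 5. In the control libraries it had 0 to 0.302 RPM. DCHP replicate 2 was the smallest traditional library with 21588335 reads. Mir122 was at 7810 and 6070 RPM in replicates 2 and 3, higher than in the other DCHP libraries (634 to 2468 RPM) and within the control range of 647 to 56035 RPM. Epithelial miRNA genes summed to 491 to 1350 RPM in control and to 737 to 1023 RPM in DCHP replicates 1 to 3, and were highest in replicates 4 and 5 (2911 and 3927 RPM), where mt-Te was within the control range. Replicate 2 had the lowest sums of the DCHP libraries for the sperm and testis genes (127.7 RPM against 201.5 to 403.0 RPM) and for the smooth muscle genes (1414 RPM against 3155 to 5789 RPM), and the part of any of these in the result was not tested.

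**Figure D5:**
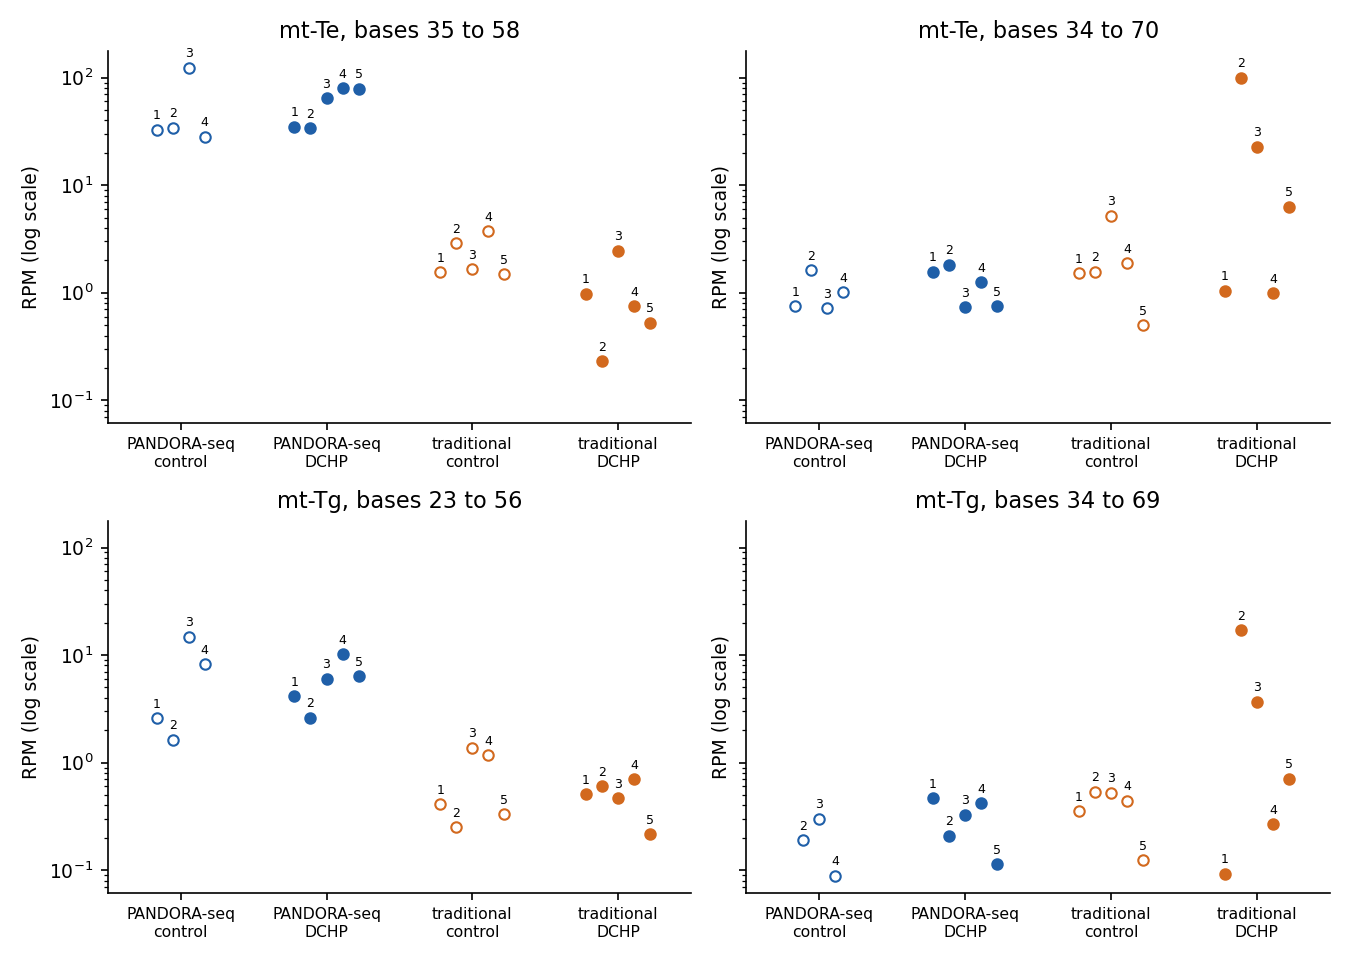
Level of 4 leading fragments in each library, in RPM on a log scale, by method and exposure (open circles control, filled circles DCHP, numbers are replicates). The 24-nt mt-Te fragment is at 28.2 to 123.8 RPM by PANDORA-seq and at most 3.73 RPM by the traditional method, and the 2 fragments that start at base 34 are highest in traditional DCHP replicates 2 and 3. PANDORA-seq control replicate 1 had no read of mt-Tg bases 34 to 69 and is not drawn there.

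Single sequences were tested with edgeR's quasi-likelihood test over the 20000 sequences with the highest mean RPM of each method, and a call needed a Benjamini-Hochberg adjusted p under 0.1 and a fold over 2. By PANDORA-seq 4 of the 4453 distinct sequences of the 2 genes were among them. None was called, beside 0% of all sequences tested, none had an unadjusted p under 0.05 (5.24% of all did), nor did DESeq2 call any (0.45% of all). The 24-nt mt-Te fragment had a log2 fold change of 0.09 ± 0.49 (SE) with an adjusted p of 0.999, and the mt-Tg fragment of bases 23 to 56 one of -0.23 ± 0.58 with an adjusted p of 0.998. Without control replicate 3 these changes were 0.88 and 0.49, so that of the mt-Tg fragment changed direction, and neither passed (edgeR adjusted p 0.9998 each). In traditional RNA-seq 5 fragments were among the sequences tested, and none was called, beside 0% of all. Of the 5, 4 had control means of 0.396 to 1.45 RPM, below the 1.69 RPM of the last sequence tested, and were thus in the table through their DCHP level, so how many of them were higher in DCHP is no support for a difference. The exception was mt-Te bases 34 to 70, with means of 2.14 RPM in control and 26.3 RPM in DCHP. An unadjusted p under 0.05 in edgeR was given to 3 of the 5, all higher in DCHP, and to 4.66% of all sequences in that direction (7.38% in either), and nothing is read from that count. These were mt-Te bases 34 to 70 with a log2 fold change of 3.61 ± 1.22, mt-Te bases 34 to 71 with 3.499 ± 1.09 and mt-Tg bases 34 to 69 with 3.41 ± 1.18 (SE, n = 5 and 5, edgeR adjusted p 0.656 each). Without DCHP replicate 2 these changes were 1.86, 1.96 and 1.56. DESeq2 with its own size factors called the 2 mt-Te fragments (adjusted p 0.0758 and 0.0601), beside 0.665% of all sequences called and 0.08% called higher, and called none of the 5 without DCHP replicate 2, a setting chosen after the data were seen. The call of bases 34 to 71 is no support for a difference, since that fragment (0.626 RPM in control) was in the table through its DCHP level.

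None of the 20 end, length and mismatch comparisons between DCHP and control passed. In percentage points the largest difference was in mt-Te reads of 30 nt or longer by the traditional method, with 35.5% ± 4.54 in control and 52.8% ± 20.8 in DCHP (exact permutation p 0.151, adjusted 0.431). When only reads of at least 20 nt were counted, these shares were 53.9%, 46.9%, 61.1%, 46.5% and 60.0% in control and 69.2%, 84.5%, 70.6%, 65.9% and 78.5% in DCHP. The groups then did not overlap, and the comparison passed (exact permutation p 0.00794, adjusted 0.0353). That is the smallest exact p the design allows, and it was adjusted within this setting alone. This was the only call between exposures among the 5 alternative settings, so it is not taken as a result about DCHP. By PANDORA-seq the shares of all reads were 11.8% ± 5.27 in control and 8.17% ± 3.57 in DCHP.

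The level of both genes relative to the other mitochondrial tRNAs differed between the methods, which is given as a description. mt-Te ranked 2 of 22 by PANDORA-seq and 5 of 22 by the traditional method, where its mean was 68.6 RPM, and without traditional DCHP replicate 2 its mean was 43.0 RPM and its rank 7. mt-Tg ranked 3 of 22 and 8 of 22, with 40.1 RPM by the traditional method. These ranks are of means: by PANDORA-seq mt-Te was above mt-Th in control replicate 3 (173.5 and 149.3 RPM), and mt-Tt was above mt-Tg in control replicate 2 (16.9 and 12.4 RPM) and DCHP replicate 2 (22.1 and 13.2 RPM). The PANDORA-seq mean of mt-Te was 2.42 times the traditional mean in control and 0.807 times in DCHP, and that of mt-Tg was 0.696 and 0.590 times, while the median of the 22 genes was 0.0859 and 0.0796 times. Ratios above that median are not independent of the choice of the genes by PANDORA-seq reads. Other genes had them too: mt-Tr had 2.81 RPM by PANDORA-seq and 2.52 RPM by the traditional method in control, and 3.71 and 3.90 RPM in DCHP. In DCHP only 1 of the 22 genes was higher by PANDORA-seq, mt-Th with 3951 and 3400 RPM. For mt-Te both ratios rest on single libraries: the control ratio was 1.52 without PANDORA-seq control replicate 3 and the DCHP ratio 1.53 without traditional DCHP replicate 2, settings chosen after the data were seen. The libraries of the methods overlapped for both genes in both exposures. Across libraries, the gene most like mt-Te in rank was mt-Tl1 in both methods, with a Spearman rho of 0.80 over 9 PANDORA-seq and 0.88 over 10 traditional libraries, followed by mt-Tl2 (0.78) and mt-Tg (0.68) by PANDORA-seq and by mt-Tg (0.85) and mt-Tp (0.78) by the traditional method. mt-Tg was most like mt-Tc (0.78), mt-Te (0.68) and mt-Tl2 (0.68) by PANDORA-seq, and mt-Tl1 (0.90), mt-Tw (0.88) and mt-Te (0.85) by the traditional method. These values share the total of each library, and no p is given. By PANDORA-seq mt-Tl1, mt-Tl2 and mt-Tc had means of only 0.674, 0.169 and 0.268 RPM, so their order over libraries rests on few reads.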

How the data were processed

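The deposited files held whole counts of cleaned reads per distinct sequence of 15 to 45 nt, 1 file per library, which the authors had neither normalized nor annotated; no molecular identifiers were used, so reads are not independent molecules. The authors analysed their reads with SPORTS1.1, allowing 1 mismatch, and the build per the labels is mm10; adapter trimming settings are not given in the sources used here. The genes and lists were chosen with earlier results of these data known.

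Sequences were matched to the 22 mitochondrial tRNAs of GENCODE M21 with CCA added, and counts were divided by total reads (RPM). Levels and shares were compared by two-sided exact permutation of the difference of means (Python 3.11.15, numpy, scipy), with Benjamini-Hochberg adjustment over 22 genes or 40 comparisons. Counts of the top 20000 sequences per method were fitted with edgeR 4.0.16, total reads as library size and no further scaling, and SEs were taken from the fold change and its F statistic; DESeq2 1.42.0 was an alternative. On simulated counts with 100 sequences changed 4-fold and 100 changed 16-fold, edgeR called 64% and 100% by PANDORA-seq and 53% and 93% by the traditional method, over 20000 sequences. Named were both genes, the 3 leading sequences per gene and method, the 3 most common first and last bases, the 3 most mismatched bases and the 3 genes most alike.

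Replicates of a group differed far beyond sampling noise in all 36 pairs. Replicate numbers paired PANDORA-seq and traditional libraries in DCHP, by the data alone: the deviations of 6507 shared sequences correlated at 0.176 to 0.427 in 5 of 5 pairs. No pairing was detected in other groups. Pairs above 0.1 were 1 of 4 in control between the methods, and 1 of 4 and 1 of 5 between exposures. That does not show that the control libraries of the methods came from different animals. The paper states that sperm RNA of control and exposed sires went through both methods.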

Additional observations from a re-analysis of the deposited data

Results flagged for a closer look

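Of 41 groups examined for a library far from the others, 4 were marked. Where all other libraries are at 0, any read makes such a mark, so no chance rate is stated. By PANDORA-seq, mt-Te in control replicate 3 was at 173.5 RPM while the other 3 control libraries were at 47.6 to 55.9 RPM. The other 3 marks rest on very few reads that reached the last base of CCA: 0.198% of the mt-Te reads in traditional control replicate 4 with 0 in the others, 0.0855% of the mt-Tg reads in PANDORA-seq DCHP replicate 4 with 0 in the others, and 0.289% of the mt-Tg reads in traditional DCHP replicate 2 with at most 0.0742% in the others.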

How the results depend on the processing

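No level of mt-Te or mt-Tg, and no difference of the DCHP effect between the methods, passed its test under any alternative run. The fold of mt-Te by PANDORA-seq, 1.02, fell to the other side of 1 per exact hairpin read of 20 to 24 nt (0.936) and with the replicate block (0.941), and ranged from 0.896 to 1.63 with 1 library left out. The fold of mt-Te by the traditional method ranged from 1.62 to 3.595 with 1 library left out. The log2 difference between the methods for mt-Te, -1.59, ranged from -1.82 to -0.66 with 1 library left out, where it was -0.66 without traditional DCHP replicate 2 and -0.91 without PANDORA-seq control replicate 3. That for mt-Tg, -0.24, ranged from -0.44 to 0.22 with 1 library left out, where it was 0.22 without PANDORA-seq control replicate 3 and 0.05 without traditional DCHP replicate 2. Of the end, length and mismatch comparisons, 8 of 40 passed as reported. With exact matches only 5 of 24 passed, and with sequences of at least 2 reads in the library 7 of 40. With reads of at least 20 nt 9 of 40 passed, the added call being long mt-Te reads between the exposures by the traditional method. As percent of distinct sequences 0 of 40 passed (8 at an unadjusted p under 0.05), and with 1 library left out 0 to 9 passed. With the replicate block 0 of 40 passed, since its smallest possible sign-flip p values of 0.0625 and 0.125 do not allow a call. Sequences of the 2 genes were called only by DESeq2, which called 2 in the traditional libraries. The block changed no other call. At base 9 PANDORA-seq had 401 and 95 covering reads, which limits what can be seen there.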
